A study of Homo sapiens with 12 samples.

Results

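The pyruvate dehydrogenase complex was described through 10 genes picked by function: the 4 pyruvate dehydrogenase kinases PDK1, PDK2, PDK3 and PDK4, the phosphatase catalytic subunits PDP1 and PDP2, and the complex components PDHA1, PDHB, DLAT and PDHX. They are 10 of the 54261 gene symbols in the deposited count table, and all 10 were among the 17572 genes that passed the filter on low counts. The rule names them by symbol and uses no measured value, but they were chosen with earlier results of these data known. RNA was sequenced in 12 libraries from the human colorectal cancer lines SW480 and DLD1, in 4 groups of 3 libraries: SW480 without lactate, SW480 treated with lactate, DLD1 without lactate and DLD1 treated with lactate. The libraries of a group are described as biological replicates, with no statement of what separated them, so p-values measure the spread between these libraries. The labels give neither the dose nor the duration of lactate treatment, and each line is 1 established line, so a difference between the lines is a difference between these 2 lines.

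The pyruvate dehydrogenase complex sits in the mitochondrial matrix and turns pyruvate, the product of glycolysis and of lactate oxidation, into acetyl-CoA for the citric acid cycle. Its first component, a tetramer of PDHA1 and PDHB subunits, decarboxylates pyruvate with thiamine pyrophosphate; DLAT forms the acetyltransferase core with lipoyl arms, PDHX anchors the dihydrolipoamide dehydrogenase DLD to that core, and DLD reoxidises the lipoyl groups. The kinases phosphorylate PDHA1 and switch the complex off, and the phosphatases remove the phosphate and switch it on. All of this is control of protein activity, which transcript levels do not measure.

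The sequences just upstream of 4 of these genes are shown because 3 of them (PDK1, PDK3 and PDHB) were the members called for lactate in SW480 and PDK4 differed most between the lines. PDK1 is also known as a target of hypoxia-inducible factors, whose core site is ACGTG or GCGTG, and capitals mark each match to either word on either strand. Each is the 250 bases before a RefSeq transcription start on GRCh38.p14, read 5′ to 3′ on the strand of the gene: PDK1 at chr2:172555840-172556089 (plus strand), PDK3 at chrX:24465036-24465285 (plus strand), PDHB at chr3:58433833-58434082 (minus strand) and PDK4 at chr7:95596517-95596766 (minus strand).
PDK1: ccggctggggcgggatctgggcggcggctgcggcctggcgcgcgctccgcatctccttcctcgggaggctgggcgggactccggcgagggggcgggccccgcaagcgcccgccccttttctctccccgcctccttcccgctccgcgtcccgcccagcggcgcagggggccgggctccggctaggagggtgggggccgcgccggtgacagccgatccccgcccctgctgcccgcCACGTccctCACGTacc
PDK3: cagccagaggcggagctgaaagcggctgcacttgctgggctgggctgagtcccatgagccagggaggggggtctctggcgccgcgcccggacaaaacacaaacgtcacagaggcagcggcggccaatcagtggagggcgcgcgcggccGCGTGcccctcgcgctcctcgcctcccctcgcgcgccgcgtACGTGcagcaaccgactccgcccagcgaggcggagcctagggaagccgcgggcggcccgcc
PDHB: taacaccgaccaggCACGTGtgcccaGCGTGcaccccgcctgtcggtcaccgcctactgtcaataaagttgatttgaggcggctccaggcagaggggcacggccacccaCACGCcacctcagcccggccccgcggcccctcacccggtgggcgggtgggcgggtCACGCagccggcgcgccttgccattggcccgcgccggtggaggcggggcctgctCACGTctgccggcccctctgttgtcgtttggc
PDK4: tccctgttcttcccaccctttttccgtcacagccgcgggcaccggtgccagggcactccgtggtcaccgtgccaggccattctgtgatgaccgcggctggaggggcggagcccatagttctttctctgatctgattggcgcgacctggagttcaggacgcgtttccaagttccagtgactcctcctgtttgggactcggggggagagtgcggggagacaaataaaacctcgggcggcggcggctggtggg
The PDK1 window held ACGTG on the minus strand with first bases 17 and 8 bases before the start. PDK1 has a second RefSeq window, chr2:172555123-172555372, directly before the start of the whole gene, and it held 0 matches to either word. The PDK3 window held GCGTG at 102 and ACGTG at 61 bases before the start, both on the plus strand. In the PDHB window there were 3 matches to each word, of which the ACGTG matches at 236 and 235 bases overlap on opposite strands as 1 palindrome. The PDK4 window held 0 matches. A RefSeq window was matched for 9 of the 10 members (PDP1 was not among them), with 13 windows in all since PDK1, PDK2 and PDHX have several starts; 8 of these 13 windows held either word, as did 43.2% of the 35116 windows of the same length in the reference table (ACGTG in 18.5%, GCGTG in 32.2%). Of the 9 members, 8 held either word in at least 1 window, all but PDK4. The 43.2% is a share of windows, and the matching share of all genes was not counted. Among these 8 were PDK2, PDP2, PDHA1, DLAT and PDHX, which were not called for lactate in SW480. These matches are a description of letters, and no binding was measured.

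Total counts ran from 12302311 to 22662063 per library, and levels below are counts scaled to the library total (CPM). The tests also used a scaling factor per library (0.946 to 1.05), which CPM leaves out. Statements on overlap refer to CPM, and narrow gaps can close or open with that factor. Libraries DLD1 control 2 and DLD1 control 3 stood apart within their group: over 12028 genes their log2 difference from the other 2 had an SD of 0.537 and 0.442, against at most 0.261 for any other library, and it followed transcript GC content in opposite directions (Spearman's rho -0.79 and 0.82). Other libraries followed GC content too, most of all SW480 lactate 3 (rho -0.61), DLD1 lactate 2 (-0.51) and SW480 lactate 1 (0.49). Log2 fold changes in DLD1 are therefore also given without each of the 2 DLD1 controls. The DLD1 fold changes themselves followed GC content, with rho 0.69 over all libraries, 0.29 without control 2 and 0.78 without control 3. Leaving out control 3 thus did not remove this trend. The SW480 fold changes had rho 0.025. Of the 8 epithelial markers checked, EPCAM, CDH1, VIL1, CDX1 and CDX2 were near 0 in the libraries labelled SW480 (EPCAM at most 1.14 CPM, CDH1 at most 1.54 CPM), while KRT8 stood at 1194 to 1410 CPM in controls and 826 to 992 CPM with lactate there. In SW480, controls first, KRT18 was also lower with lactate (658 to 795 against 433 to 514 CPM), but KRT19 was higher (91.4 to 102 against 140 to 167 CPM). The sum of the 8 was 1949 to 2298 CPM in SW480 controls and 1400.0 to 1665 CPM with lactate, and in DLD1 6479 to 9519 and 9473 to 10509 CPM. DLD1 libraries had EPCAM at 656 to 716 CPM and CDX2 at 94.8 to 183 CPM, but CDX1 was near 0 there too (at most 0.132 CPM). Of 11 markers of other cells, CD68 and COL1A1 were higher after lactate in SW480 (30.8 to 50.2 against 85.6 to 104 CPM, and 19.1 to 22.9 against 48.3 to 49.2 CPM), and the sum of the 11 was 63.0 to 82.2 CPM in SW480 controls and 148 to 164 CPM with lactate, and in DLD1 it was 12.5 to 19.5 CPM in controls and 25.6 to 28.5 CPM with lactate. Other markers of that list did not separate the SW480 groups. COL1A2 stood at 0.694 to 1.29 CPM in SW480 controls and 0.561 to 0.930 CPM with lactate. PDGFRB stood at 2.60 to 3.36 and 2.63 to 3.49 CPM there, VWF at 0 to 0.406 and 0.125 to 0.465 CPM. ALB stood at 3.99 to 8.36 and 2.31 to 9.75 CPM. PTPRC, CD3E, PECAM1 and HBB were at most 0.365 CPM in every library. The part of these markers in the results below was not tested, nor was the identity of the line in the libraries labelled SW480. In bulk RNA, fewer cells of a kind and less RNA per cell cannot be told apart.

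In SW480, lactate-treated libraries held more transcript of PDK3 and PDK1, kinases that inactivate the complex, and less of PDHB, the beta subunit of its first component. PDK3 rose 1.58-fold and PDK1 1.37-fold, and PDHB fell to 0.749 of its control level. The other 7 members did not pass the threshold. A gene counts as called where edgeR's quasi-likelihood test gave a Benjamini-Hochberg adjusted p under 0.05 over all 17572 genes; by this rule 2 of the 10 members rose, where 6.83% of all genes tested did, and 1 fell, where 5.59% did, which makes 3 of 10 beside 12.4% of all genes. The median log2 fold change of the members was 0.059, and that of all genes tested -0.0061. Of the members, 4 had control and lactate ranges in CPM that were apart (PDK1 and PDK3 higher, PDHA1 and PDHB lower), against 40.8% of all genes.

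Among the kinases, PDK3, an isoform that pyruvate inhibits only weakly, stood at 67.8, 77.1 and 73.0 CPM in SW480 controls 1 to 3 and at 103, 116 and 121 CPM in the lactate libraries. Each lactate library lay above each control. The log2 fold change was 0.66 ± 0.096 (SE; edgeR adjusted p 6.94e-04), and the call held without any 1 of the 12 libraries, with adjusted p of at most 0.00922. PDK1, the kinase best known as a hypoxia target, stood at 95.5, 109.7 and 106 CPM and, with lactate, at 126, 141 and 152 CPM, again without overlap. Its log2 fold change was 0.45 ± 0.10 (edgeR adjusted p 0.00985). That call was lost when SW480 control 1 was left out (log2 0.39, adjusted p 0.0731) and held without each other library.

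PDK4, the kinase of fasting and fat use, was the most abundant kinase transcript in SW480 by CPM per kilobase of transcript, and it stood at 719, 814 and 813 CPM in controls and 707, 732 and 685 CPM with lactate. The groups overlapped, since lactate library 2 lay above control 1. Its log2 fold change of -0.12 ± 0.11 had an edgeR adjusted p of 0.544. PDK2, the most widely expressed isoform across tissues, was close to the lower end of the tested range, with 21 to 36 counts a library; it stood at 1.35, 2.03 and 1.45 CPM and 2.18, 1.86 and 1.71 CPM, with overlap (log2 0.30 ± 0.31, edgeR adjusted p 0.575). A log2 change of the size seen for PDK1 would lie within 2 SE of 0 for PDK2, so it was not detectable at this depth.

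Neither phosphatase gene was called in SW480. PDP1, the calcium-sensitive isoform, stood at 17.9, 17.8 and 18.6 CPM without and 17.2, 20.3 and 25.3 CPM with lactate (log2 0.23 ± 0.16, edgeR adjusted p 0.384). Lactate library 1 lay below all 3 controls and libraries 2 and 3 above them. PDP2 stood at 45.4, 49.7 and 51.9 CPM and 48.7, 45.3 and 54.0 CPM (log2 0.029 ± 0.12, adjusted p 0.909), with the groups fully interleaved.

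Both subunits of the first component were lower in every lactate library of SW480 than in every control, and only PDHB passed the test. PDHB stood at 81.1, 65.8 and 75.8 CPM in controls and 53.7, 54.2 and 56.4 CPM with lactate, with a log2 fold change of -0.42 ± 0.10 (edgeR adjusted p 0.0155). Its call was lost when SW480 control 1 or 3 or any 1 of the 3 SW480 lactate libraries was left out, with adjusted p of 0.0638 to 0.104. PDHA1, the alpha subunit that the kinases phosphorylate, stood at 206, 198 and 201 CPM and 176, 178 and 172 CPM (log2 -0.18 ± 0.088, adjusted p 0.209).

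The core genes showed no called difference in SW480. DLAT stood at 86.5, 80.3 and 83.1 CPM without and 71.1, 70.5 and 86.3 CPM with lactate (log2 -0.11 ± 0.12, edgeR adjusted p 0.575). Lactate library 3 lay close to the highest control, and libraries 1 and 2 below all controls. PDHX stood at 86.8, 87.8 and 88.0 CPM and 86.9, 93.1 and 94.7 CPM (log2 0.089 ± 0.096, adjusted p 0.593), with lactate libraries 2 and 3 above the controls and library 1 among them. With the scaling factors of the tests applied (0.951 for lactate library 1, 0.976 to 0.980 for controls), library 1 also lies above the controls. DLD, a component shared with sister complexes, which is not one of the 10, averaged 142 ± 6.58 and 121 ± 7.12 CPM (SD, n = 3; log2 -0.20 ± 0.12, adjusted p 0.292). With offsets that remove the trend of each library along transcript GC content and length, DLD was called lower (adjusted p 0.0231), as it was when SW480 was fitted alone (0.0401).

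**Figure D1:**
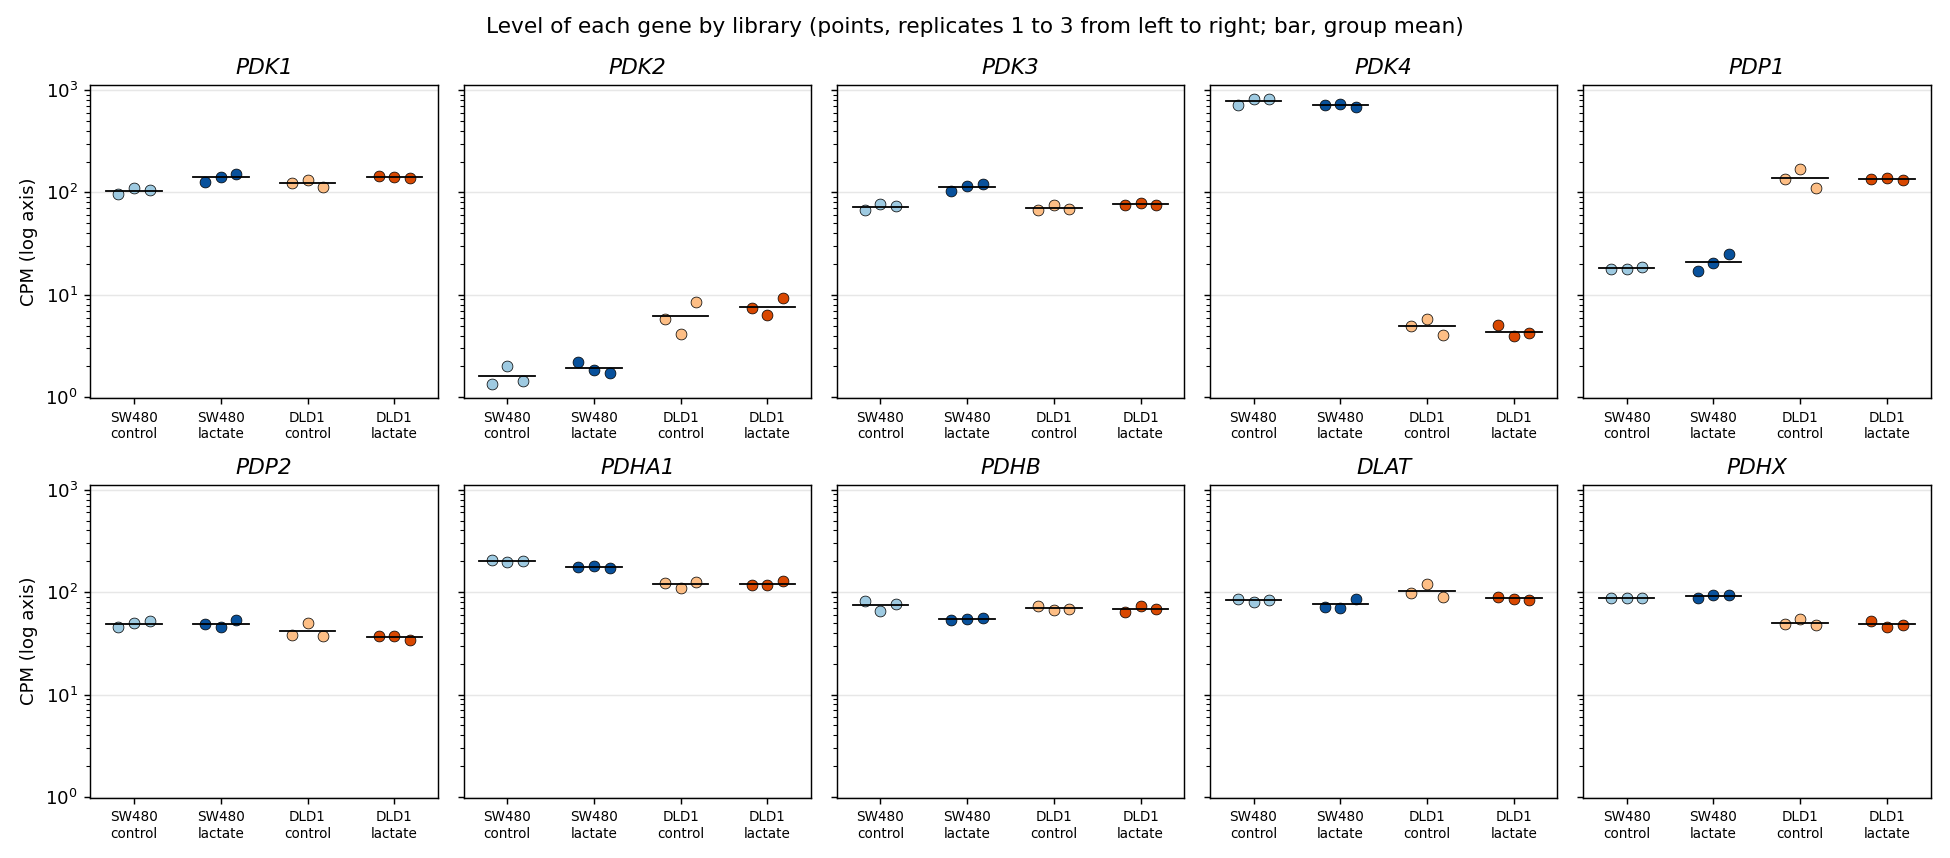
CPM of each gene (log axis) in every library of the 4 groups on the horizontal axis; points are replicates 1 to 3 from left to right and the bar is the group mean. PDK4 lies at 685 CPM or more in SW480 and at 5.83 CPM or less in DLD1, PDP1 is higher in DLD1, and the 3 SW480 lactate points of PDK1 and PDK3 lie above their controls.

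None of the 10 members was called in DLD1 with edgeR, and none with limma-voom or with DESeq2, which gave no adjusted p for PDK2. At an unadjusted p under 0.05 there was 1, DLAT, beside 18.5% of all genes. Few genes were called there at all: 0.381% of those tested, with 0.336% higher and 0.0455% lower. That number turned on single libraries: it was 67 genes with all 12 libraries, 3791 without DLD1 control 3, 149 without DLD1 control 2, 3 without DLD1 control 1 and 7 to 51 without any other 1. Among these fits the 1 member called was DLAT, without DLD1 control 3. The median log2 fold change of the members was -0.050, and that of all genes 0.017. In CPM, groups did not overlap for 3 members (PDK1 and PDK3 higher, DLAT lower), against 18.8% of all genes. With GC content and length offsets the genes called in DLD1 were 330 higher and 275 lower in place of 59 and 8, and still 0 of the 10.

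For the kinases that rose in SW480, the DLD1 groups were separated by narrow gaps in CPM. PDK1 stood at 123, 133 and 113 CPM in DLD1 controls 1 to 3 and at 146, 142 and 137 CPM with lactate (log2 0.18 ± 0.10, edgeR adjusted p 0.348). PDK3 stood at 67.1, 74.7 and 69.3 CPM and 75.6, 79.0 and 74.9 CPM (log2 0.096 ± 0.095, adjusted p 0.590). In both cases the lowest lactate library lay just above the highest control, which was control 2. For PDK3 the groups overlap once the scaling factors of the tests are applied (1.01 for control 2, 1.03 for lactate library 3). With the offsets the log2 values were 0.30 (adjusted p 0.0605) for PDK1 and 0.22 (0.0701) for PDK3. Without DLD1 control 2 they were 0.24 and 0.15, and without DLD1 control 3 they were 0.11 and 0.079, none of them called.

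The least abundant kinases in DLD1, by CPM per kilobase, were PDK4, at 5.01, 5.83 and 4.01 CPM without and 5.03, 3.92 and 4.19 CPM with lactate (log2 -0.20 ± 0.16, edgeR adjusted p 0.495), and PDK2, whose libraries ran from 4.15 to 9.22 CPM (log2 0.29 ± 0.24, adjusted p 0.506). PDK2 in the controls was lowest in library 2 and highest in library 3, and PDK4 the reverse. Without control 2 the log2 fold changes were 0.093 for PDK2 and -0.073 for PDK4, and without control 3 they were 0.59 and -0.34, none called.

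For the phosphatases, PDP1 stood at 134, 168 and 110.2 CPM in DLD1 controls and at 135, 139 and 133 CPM with lactate, so the 3 lactate libraries lay inside the range of the controls (log2 -0.045 ± 0.14, edgeR adjusted p 0.895). Without control 2 the estimate was 0.13 and without control 3 it was -0.19. PDP2 stood at 38.6, 49.4 and 37.5 CPM and 37.2, 37.6 and 34.2 CPM (log2 -0.23 ± 0.12, adjusted p 0.321), with overlap and with control 2 the highest of the 6. Its log2 fold change was -0.086 without control 2 and -0.30 without control 3, neither called.

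Of the subunits, DLAT stood at 97.7, 120.2 and 90.5 CPM and 90.3, 86.6 and 83.7 CPM, and the highest lactate library was just under the lowest control (log2 -0.27 ± 0.11, edgeR adjusted p 0.242). It was called lower only without DLD1 control 3 (log2 -0.36, adjusted p 0.0287), and without control 2 its log2 fold change was -0.13. With the offsets the DLAT value was -0.16 (adjusted p 0.153). PDHA1 stood at 123, 109.8 and 127 CPM and 118, 117 and 129 CPM, with overlap (log2 -0.0036, adjusted p 1). PDHB ranged from 64.1 to 73.3 CPM over the 6 libraries (log2 -0.054 ± 0.099, adjusted p 0.796) and PDHX from 45.6 to 54.7 CPM (log2 -0.076 ± 0.097, adjusted p 0.688), both with overlap. Without control 2 the log2 fold changes of PDHA1, PDHB and PDHX were -0.056, -0.077 and -0.0039, and without control 3 they were 0.032, -0.069 and -0.12, none called. DLD averaged 181 ± 31.0 and 153 ± 7.46 CPM (log2 -0.27 ± 0.12, adjusted p 0.243). DLD was called lower without DLD1 control 3 (log2 -0.39, adjusted p 0.0139), and its log2 fold change was -0.13 without control 2 and -0.038 with the offsets, neither called.

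**Figure D2:**
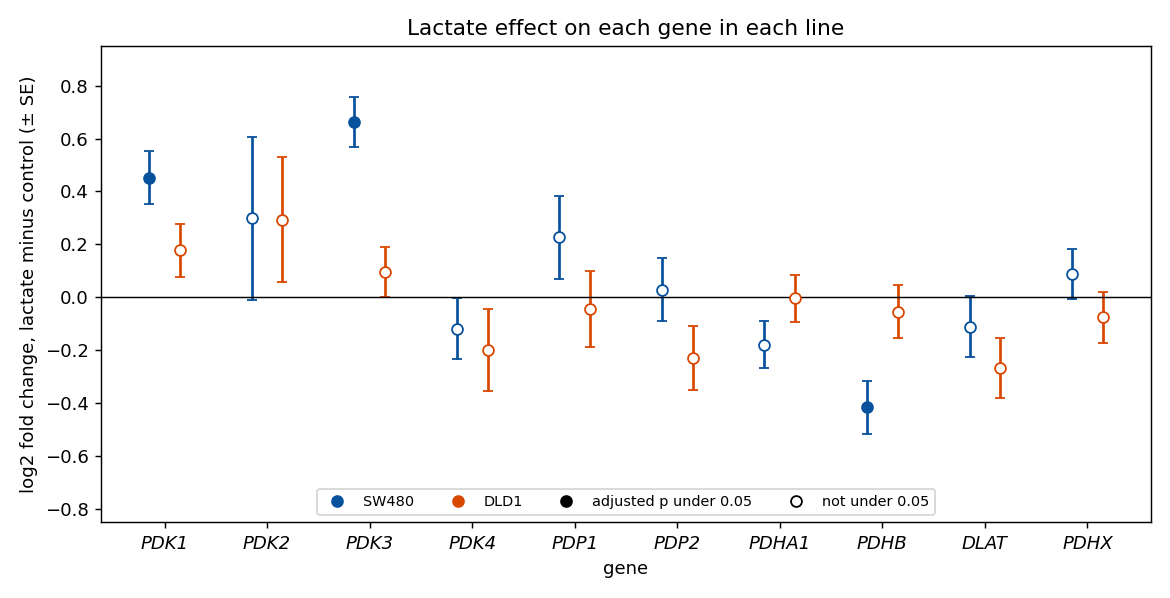
Log2 fold change of each gene with lactate (vertical axis, lactate minus control, bars are ± SE from edgeR's fit) in SW480 and DLD1; filled points have an adjusted p under 0.05. The filled points are PDK1 (0.45), PDK3 (0.66) and PDHB (-0.42) in SW480, and every DLD1 point is open.

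Whether the lines differed in their response was tested directly, as the DLD1 effect minus the SW480 effect. No member was called by edgeR, where 0.728% of all genes were; 2 had an unadjusted p under 0.05 (PDK3 and PDHB, beside 16.8% of all genes). PDK3 had the smallest p, with a difference of -0.57 ± 0.13 log2 units (edgeR adjusted p 0.0668): 0.66 in SW480 against 0.096 in DLD1. It was called with DESeq2 (adjusted p 9.72e-04), with the GC content and length offsets (0.00191), and without SW480 lactate 1 (0.0375), DLD1 control 2 (0.0204) or DLD1 control 3 (0.0204). It was not called with limma-voom (0.0656), nor without each other library. The PDHB difference was 0.36 ± 0.14 (adjusted p 0.220; 0.0185 with the offsets), and that of PDK1 was -0.27 ± 0.14 (adjusted p 0.343), so the PDK1 response was not shown to differ between the lines. The median difference over the members was -0.16 and over all genes 0.013.

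Without lactate, the largest differences between the lines among the members were in the levels of PDK4, PDP1 and PDK2. DLD1 controls held 166-fold lower PDK4 than SW480 controls, 7.26-fold higher PDP1 and 3.70-fold higher PDK2, with PDHA1 1.76-fold and PDHX 1.82-fold lower. By edgeR 6 of the 10 were called, 2 higher in DLD1 and 4 lower, but 70.8% of all genes tested were called between the lines (33.6% higher, 37.3% lower), so this count is near the background. In CPM, groups did not overlap for 7 members, against 70.6% of all genes. The median log2 difference was -0.13 for the members and -0.050 for all genes. Line and anything else that differed between the cultures of the 2 lines cannot be told apart.

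PDK4 averaged 782 ± 54.5 CPM in SW480 controls and 4.95 ± 0.911 CPM in DLD1 controls (SD, n = 3), a log2 difference of -7.38 ± 0.16 (edgeR adjusted p 1.17e-14). All 6 SW480 libraries, treated or not, exceeded 685 CPM, and no DLD1 library exceeded 5.83 CPM. PDK2 averaged 1.61 ± 0.369 and 6.15 ± 2.19 CPM (log2 1.89 ± 0.28, adjusted p 2.40e-05). PDK3 did not separate the lines, at 72.7 ± 4.67 and 70.3 ± 3.91 CPM (log2 -0.11 ± 0.096, adjusted p 0.309). PDK1 averaged 104 ± 7.44 and 123 ± 10.1 CPM, without overlap in CPM (log2 0.18 ± 0.10, adjusted p 0.118). These PDK1 groups overlap once the scaling factors of the tests are applied. With the offsets PDK1 was called at log2 0.76 (adjusted p 2.49e-07). Its 14193-base transcript model lies at the 99th percentile of transcript length.

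PDP1 averaged 18.1 ± 0.407 CPM in SW480 and 137 ± 29.2 CPM in DLD1 controls (log2 2.86 ± 0.16, edgeR adjusted p 3.98e-10), and no library of one line reached the other. PDP2 averaged 49.0 ± 3.32 and 41.8 ± 6.59 CPM, with overlap (log2 -0.29 ± 0.12, adjusted p 0.0399). Its call held only without SW480 control 1 or DLD1 control 2 among the 12 libraries left out in turn (adjusted p up to 0.144) and was lost with the offsets (log2 -0.077, adjusted p 0.308). PDHA1 averaged 202 ± 4.20 and 119.8 ± 8.88 CPM (log2 -0.82 ± 0.089, adjusted p 9.76e-07) and PDHX 87.5 ± 0.642 and 50.2 ± 3.98 CPM (log2 -0.87 ± 0.097, adjusted p 1.28e-06). PDHB (-0.16 ± 0.10, adjusted p 0.174) and DLAT (0.24 ± 0.11, adjusted p 0.0757) were not called, although DLAT was with the offsets (log2 0.30, adjusted p 1.67e-04) and without DLD1 control 3 (0.34, 0.0106).

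To compare the genes with each other, CPM was divided by the length of the principal transcript in kilobases. PDK1 has principal transcripts of 2990 and 14193 bases and PDP1 of 2140 and 4272 bases, so values that use either gene are given under both lengths, the longest first. PDK4 made up 82.7 ± 0.407% of the summed kinase level per kb in SW480 controls (75.0 ± 0.441% with the shortest transcripts) and 2.85 ± 0.437% in DLD1 controls (1.70 ± 0.228%). PDK3 made up 75.5 ± 0.662% in DLD1 controls with the longest transcripts and 45.2 ± 1.24% with the shortest, and PDK1 17.9 ± 1.01% and 50.8 ± 1.75%. Which of PDK1 and PDK3 led in DLD1 thus depended on the transcript assumed, while PDK4 led in SW480 under both.

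With lactate in SW480 the PDK4 share was 74.1 ± 1.90% (65.1 ± 2.35% with the shortest). The PDK3 share went from 14.3 ± 0.358% to 22.0 ± 1.60% with the longest transcripts and from 13.0 ± 0.313% to 19.3 ± 1.20% with the shortest. The PDK1 share went from 2.77 ± 0.0312% to 3.69 ± 0.321%, and from 11.9 ± 0.122% to 15.4 ± 1.17%. For each of these 3 shares, under both lengths, the 3 lactate libraries lay outside the range of the 3 controls (exact permutation p 0.1, two-sided, the smallest that 3 against 3 allows). The summed kinase level was 264 ± 18.1 CPM per kb in SW480 controls and 267 ± 7.57 with lactate, with overlap (exact permutation p 0.9), and 292 ± 20 and 304 ± 9.58 with the shortest transcripts, also with overlap (exact permutation p 0.4). In DLD1 the shares of PDK1, PDK3 and PDK4 overlapped between control and lactate libraries under both lengths. The summed kinase level there was 48.5 ± 2.33 and 53.2 ± 0.805 CPM per kb, and 81.0 ± 4.67 and 90.7 ± 1.76 with the shortest transcripts, each without overlap (exact permutation p 0.1).

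The summed kinase level over the summed phosphatase level per kb was 23.8 ± 0.901 in SW480 controls and 22.9 ± 2.75 with lactate, and in DLD1 1.30 ± 0.216 and 1.45 ± 0.0167 (longest transcripts; exact permutation p 0.9 and 0.4, two-sided). With the shortest transcripts it was 19.0 ± 0.875 and 18.5 ± 2.29 in SW480, and 1.18 ± 0.178 and 1.32 ± 0.0151 in DLD1 (exact permutation p 0.8 and 0.4). PDP1 held 38.2 ± 1.37% of the phosphatase level in SW480 controls with the longest transcripts and 55.2 ± 1.42% with the shortest, so which phosphatase led there depended on the transcript assumed. In DLD1 controls PDP1 held 84.5 ± 1.22% and 91.6 ± 0.721%. The ratio of PDHB to PDHA1 per kb was 0.797 ± 0.0682 in SW480 controls, 0.678 ± 0.0291 with lactate, 1.26 ± 0.0751 in DLD1 controls and 1.22 ± 0.110 with lactate. The ratio of PDHX to DLAT was 1.96 ± 0.0842 and 2.26 ± 0.208 in SW480, and 0.918 ± 0.0634 and 1.04 ± 0.0512 in DLD1. In SW480 both ratios separated lactate from control libraries, and in DLD1 the ratio of PDHX to DLAT did (exact permutation p 0.1 each, the smallest possible). The gaps were narrow. For PDHX to DLAT the highest control and lowest lactate library were at 2.04 and 2.05 in SW480 and at 0.975 and 0.982 in DLD1. For PDHB to PDHA1 in SW480 the lowest control was at 0.720 and the highest lactate library at 0.711.

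**Figure D3:**
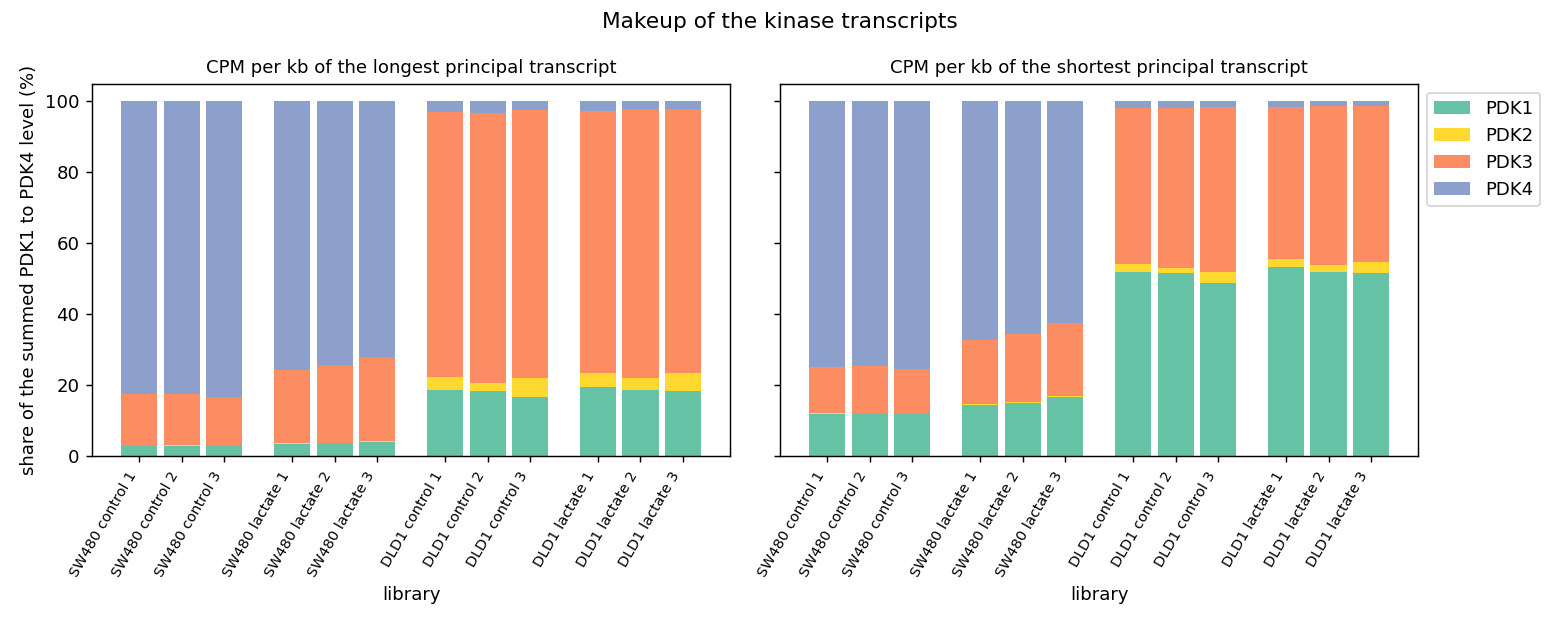
Share of each kinase in the summed PDK1 to PDK4 level per kb (percent, stacked to 100) in each of the 12 libraries, with the longest principal transcripts on the left and the shortest on the right. PDK4 fills most of every SW480 bar and a thin cap of every DLD1 bar, and the PDK3 segment is larger in the 3 SW480 lactate bars than in the controls.

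A list of 52 genes of the same pathway was examined beside the members: partner components, pyruvate entry and use, lipoate and thiamine supply, sirtuins, the sister 2-oxoacid dehydrogenases, and transcription regulators known for PDK genes. Of the 51 tested, 4 rose and 6 fell in SW480, 0 were called in DLD1 and 1 (PPARG) was called for the difference between the lines, beside 12.4%, 0.381% and 0.728% of all genes. Between the controls 14 were higher and 22 lower in DLD1, beside 70.8% of all genes. The median log2 fold change of the list was 0.0083 in SW480 and 0.019 in DLD1. Of the 51, DESeq2 called 4 in DLD1 (NFU1, EPAS1, PPARD and PPARG), beside 684 of all 17572 genes. With limma-voom 0 of the 51 were called in DLD1, beside 71 higher and 9 lower among all genes. At an unadjusted p under 0.05 in edgeR there were 17 of the 51 in DLD1, beside 18.5% of all genes: 7 of 14 transcription regulators, 6 of 14 cofactor genes, 2 of 10 sister-complex genes, 1 of 8 genes of pyruvate entry and use, 1 of 2 partner components and 0 of 3 sirtuins.

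In the cofactor list, 2 of 14 genes fell in SW480 and 0 rose. Of these, LIPT2, which transfers octanoyl groups at the start of lipoate synthesis, fell from 3.22 ± 0.452 to 1.60 ± 0.0283 CPM on 22 to 57 counts (log2 -0.99 ± 0.25, edgeR adjusted p 0.0185), and was lost without SW480 control 1 or 3 or SW480 lactate 2 or 3. Of the 8 genes of pyruvate entry and use, ME3, a mitochondrial malic enzyme that makes pyruvate, was the 1 called (8.52 ± 0.991 to 5.72 ± 0.512 CPM, log2 -0.55 ± 0.16, adjusted p 0.0375). Of the 10 sister-complex genes, DLST, the core of the 2-oxoglutarate dehydrogenase, was the 1 called (145 ± 5.36 to 118 ± 2.81 CPM, log2 -0.27 ± 0.085, adjusted p 0.0487). ME3 and DLST each held in only 2 of the 12 fits that left out a library.

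Among the 14 regulators, EPAS1, a hypoxia-inducible factor, rose in SW480 from 406 ± 27.9 to 787 ± 20.5 CPM (log2 0.98 ± 0.10, edgeR adjusted p 8.84e-05). FOXO3, a forkhead factor active in fasting, rose from 24.9 ± 4.48 to 39.6 ± 0.0972 CPM (log2 0.69 ± 0.14, adjusted p 0.00542). Both held without any 1 of the 12 libraries. MYC rose from 393 ± 23.4 to 521 ± 49.3 CPM (log2 0.43 ± 0.11, adjusted p 0.0242), and was lost without SW480 control 1 or 3 or SW480 lactate 2 or 3. ARNT, the partner of the hypoxia-inducible factors, rose (log2 0.30 ± 0.093, adjusted p 0.0497) and PPARG, a lipid-sensing nuclear receptor, fell (log2 -0.34 ± 0.095, adjusted p 0.0321); ARNT held in 2 and PPARG in 5 of those 12 fits.

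Chosen after their values were seen, regulators that differed between the untreated lines are given as context for PDK4. Their part in the PDK4 difference was not tested. HIF1A stood at 773 ± 35.7 CPM in SW480 and 216 ± 44.4 CPM in DLD1 controls. PPARGC1A, a coactivator of oxidative metabolism, stood at 24.0 ± 1.32 and 0.190 ± 0.0822 CPM, and FOXO1, a forkhead factor, at 74.5 ± 7.81 and 8.70 ± 1.93 CPM. HNF4A, a factor of gut and liver epithelium, went the other way, at 0.226 ± 0.141 and 34.9 ± 7.59 CPM. PPARA (9.89 ± 1.09 and 23.3 ± 1.06 CPM), PPARD (15.9 ± 0.680 and 43.0 ± 11.8 CPM) and FOXO3 (24.9 ± 4.48 and 61.3 ± 6.89 CPM) were also higher in DLD1 controls. By edgeR all 14 regulators were called between the controls (5 higher and 9 lower in DLD1), beside 70.8% of all genes. The calls of the regulators named here thus do not set them apart.

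The genes most like PDK1 and PDK3 were found by Pearson's r of log2 CPM over the 12 libraries, each taken as its deviation from the mean of its line, among 11608 genes with a mean of at least 5 CPM. For PDK3 they included BCL10 (r 0.987), NIPA1 (0.986), EXT1 (0.985) and LINC00938 (0.982). For PDK1 they were LIMCH1 (0.986), APPL2 (0.982), RIOK3 (0.980), KDM3A (0.974) and ZC3H6 (0.974). PDK1 and PDK3 themselves had r 0.943. The 12 points share their treatment groups, and their deviations partly follow GC content in libraries of both lines, so these are descriptions.

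**Figure D4:**
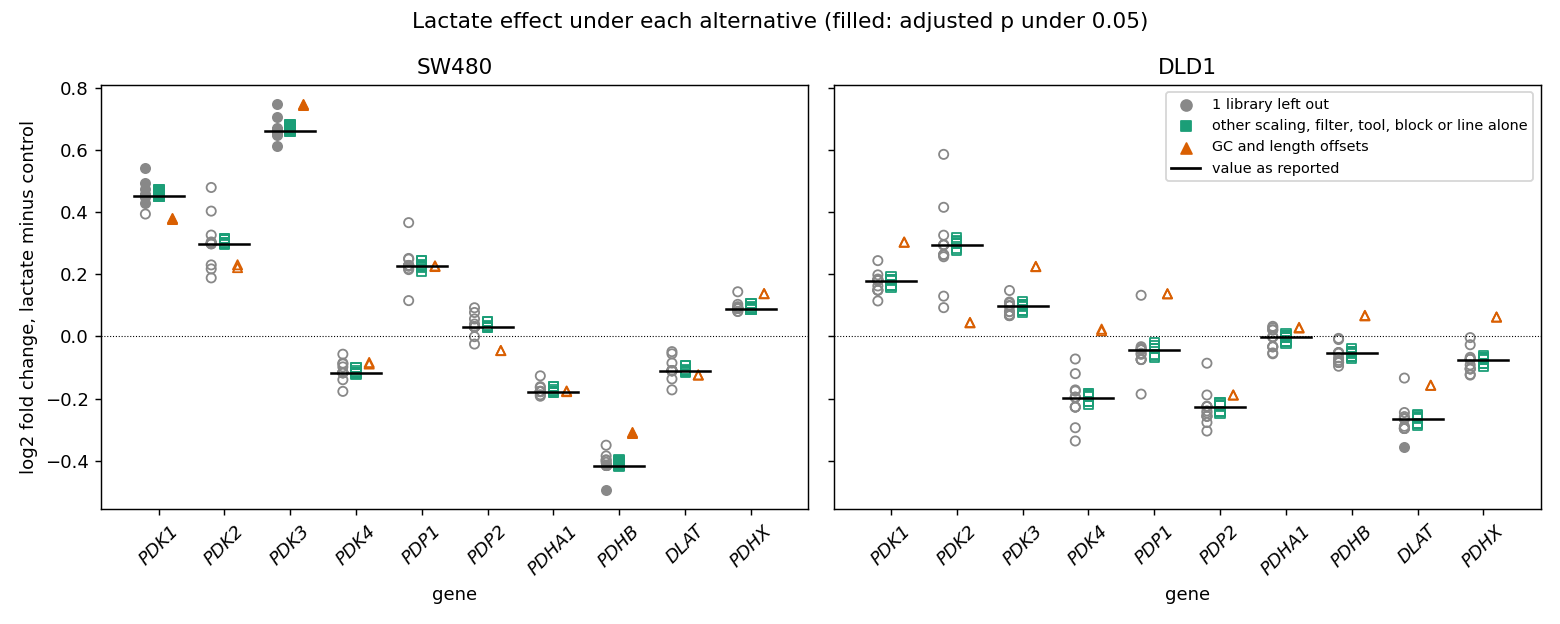
Log2 fold change with lactate in SW480 (left) and DLD1 (right) for each gene: the line is the value as reported, circles leave out 1 library, squares use another scaling, filter, tool, block or line alone, and triangles use the GC content and length offsets; filled symbols have an adjusted p under 0.05. PDK3 is filled in every SW480 fit, and in DLD1 the only filled symbol is DLAT without DLD1 control 3 (-0.36).

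On GRCh38.p14 PDK1 spans chr2:172555373-172724312, PDK3 chrX:24465286-24550466, PDK4 chr7:95583499-95596516 (minus strand), PDHB chr3:58427630-58433832 (minus strand) and PDHA1 chrX:19343927-19361718. The strand setting of the counting is not given in the sources used here, so reads of overlapping genes on the other strand may have been counted with a member. In RefSeq, PDK1 overlaps PDK1-AS1 and RAPGEF4-AS1, PDK2 overlaps PDK2-AS1 and SAMD14, PDHA1 overlaps MAP3K15, PDHB overlaps LOC107986092, DLAT overlaps PIH1D2 and PDHX overlaps APIP, leaving aside smaller pseudogenes and small RNAs within DLAT, PDHX and PDK3. The count table also lists the pseudogenes PDK1P1 and PDHA1P1, whose reads may be shared with PDK1 and PDHA1. The levels of these members are uncertain to that extent.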

How the data were processed

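The file the authors deposited holds whole-number read counts for each gene symbol, not normalized, with 1 column a library per the file headers; 12 columns were used and 0 left over. The submitters' processing notes name HISAT2 and the GRCh38 build. The counter, the annotation and how strand was set were not found in any label or header.

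From the deposited counts, edgeR 4.0.16 (R 4.3.3) was run with filterByExpr by group, TMM scaling and a robust quasi-likelihood fit of 4 group means over the 12 libraries. Tests were two-sided, adjusted by Benjamini-Hochberg over 17572 genes, with a threshold of 0.05; the script was tested on simulated data. The SE is the log2 fold change divided by the root of its F statistic. CPM divides counts by the total of the library, and levels per kb used principal transcripts of GENCODE 29. Shares and ratios were compared by exact permutation tests.

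The members and lists were chosen with earlier results of these data known. All 10 members and DLD were named whatever their p, with each gene of the other lists called with lactate and the 5 genes most like PDK1 and like PDK3, except that some of these genes are not reported here. As alternatives, the scaling was replaced (DESeq2's size factors, upper quartile), the filter was dropped or set to 1 CPM in 3 libraries, and the tool was DESeq2 1.42.0 or voom of limma 3.58.1. Further ones were the replicate number as a block, offsets for transcript GC content and length (known for 87.7% of tested genes), both of these together, 1 line at a time, and each library left out. Counting error limits genes with few counts, such as PDK2.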

Additional observations from a re-analysis of the deposited data

Results flagged for a closer look

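PPARG, a lipid-sensing nuclear receptor, was the 1 gene of the pathway lists whose response to lactate differed between the lines by a test of the difference itself (DLD1 minus SW480, 0.66 ± 0.13 on the log2 scale, edgeR's quasi-likelihood test with Benjamini-Hochberg adjustment, adjusted p 0.0373). It went from 46.5 ± 1.85 to 36.3 ± 2.35 CPM in SW480 and from 40.3 ± 0.597 to 51.1 ± 3.60 CPM in DLD1 (SD, n = 3 libraries each), and the 3 lactate libraries lay below all controls in SW480 and above all controls in DLD1. The difference was called in only 2 of the 12 fits that left out a library, without DLD1 control 2 or DLD1 control 3, with an adjusted p of up to 0.159 in the others. It had an adjusted p of 1.22e-04 with GC content and length offsets and 0.0793 with the replicate block. That PPARG was the 1 gene holds for the main edgeR fit. DESeq2 called 4 of the 51 list genes for the difference, beside 719 of all genes, and limma-voom 1. With the offsets, 2 transcription regulators were called higher and 2 lower, beside 1429 of all genes.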

How the results depend on the processing

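Among the members' fold changes under an alternative, 786 kept their direction and their side of the threshold, 37 changed sign, 21 lost and 15 gained a call. Genes called in SW480 (2183) numbered 5023 with GC content and length offsets, 4768 with these and the block, 4783 with the line alone and 689 to 4347 with 1 library left out; members called (3) then ranged from 1 to 3. Genes called in DLD1 (67) numbered 855 unfiltered, 684 with DESeq2, 34 with the replicate block, 605 with offsets, 428 with offsets and block, 1 with the line alone and 3 to 3791 with 1 library left out, with 0 to 1 members. For the difference between lines (128 genes, 0 members) the counts were 837 unfiltered, 719 with DESeq2 (1 member), 1429 with offsets (2 members), 1237 with offsets and block (2 members), and 9 to 1508 with 1 library left out (0 to 1 members). The cause was not tested.

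The labels do not say whether the replicate number pairs control and lactate libraries, and these few correlations cannot settle it. Same-numbered control and lactate libraries had correlations of 0.102, -0.000225 and 0.173 in SW480 and -0.0708, 0.062 and 0.116 in DLD1. Differently numbered ones ran from -0.227 to 0.133 in SW480 and from -0.119 to 0.0639 in DLD1. With the replicate block 3 members were called in SW480, 0 in DLD1, 0 for the difference and 5 between controls (6 without it).

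Values that changed sign were small and none was called in either direction. Offsets alone and with the block gave, in SW480, PDP2 -0.046 and -0.045; in DLD1, PDK4 0.018 and 0.023, PDP1 0.14 and 0.14, PDHA1 0.027 and 0.029, PDHB 0.066 and 0.068, and PDHX 0.062 and 0.062; for the difference, PDK4 0.10 and 0.11; and between controls, PDK3 0.077 and 0.078, and PDHB 0.088 and 0.090. PDHA1 in DLD1 was 0.0092 with upper quartile scaling, 0.0025 unfiltered and 0.0024 with the stricter filter, and the PDK2 difference was 0.0068 with upper quartile scaling and 0.0073 with limma-voom. Leaving out 1 library gave ranges of -0.025 to 0.092 for PDP2 in SW480, -0.056 to 0.032 for PDHA1 and -0.19 to 0.13 for PDP1 in DLD1, and -0.21 to 0.29 for PDK2 and -0.22 to 0.043 for PDK4 in the difference.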
